A study of Mus musculus with 24 samples.

Results

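Matrix proteases, their inhibitors and the collagen crosslinkers were followed across kidney libraries of mice on an adenine diet. The set held 36 genes from chosen families, namely matrix metalloproteinases, ADAM and ADAMTS proteases, TIMP inhibitors, lysyl oxidases and the plasminogen activators with their receptor and an inhibitor. It was drawn up with earlier results of these data known and leaves out other MMP, ADAM and ADAMTS genes. Shares of the set given beside those of all genes are therefore descriptive. All 36 were found among 35460 genes with a quantified transcript, and 35 passed the filter on low counts. Timp4, which encodes a tissue inhibitor of metalloproteinases, was below the filter in both experiments. The study asked how loss of ENPP1, an ectonucleotidase, or an antibody against human ENPP1 changes the kidney under this diet, which injures the tubules through crystals of oxidised adenine. In the knockout experiment, 4 mice ate chow, 6 wild-type mice (CAG-ERCre-negative) ate adenine for 14 days, and 6 mice labelled ENPP1 knockout ate the same diet. The labelled knockouts came from a cross of ENPP1 fl/fl mice with the CAG-ERCre line, whose Cre is driven in most cell types, and recombination was started with tamoxifen. In the antibody experiment all mice ate adenine for 14 days, and 4 received control IgG and 4 the hENPP1 monoclonal antibody, by injection into the peritoneum at 50 mg/kg, 2 times per week. The labelled knockout group carried the Cre transgene and its wild-type comparison group did not, so the effect of Cre and that of the deletion cannot be told apart. Not given in the labels are the genotype of the chow mice, whether wild-type mice also received tamoxifen, strain, sex and age, and whether antibody-treated mice expressed human ENPP1.

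Metalloproteinases of these families use a zinc ion to cut proteins outside the cell. Secreted MMPs cut collagens, elastin and other matrix, membrane MMPs do so at the cell surface and activate secreted ones, ADAMTS proteases cut proteoglycans and process procollagen, and ADAM proteases release growth factors and cytokines from the cell surface. TIMPs block these enzymes, the plasminogen activators make plasmin, which degrades fibrin and activates pro-MMPs, and lysyl oxidases crosslink collagen and elastin. In injured kidney these genes are known from fibroblasts, macrophages and damaged tubules.

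Libraries of the knockout experiment held 21164187 to 28350038 estimated reads and those of the antibody experiment 44080791 to 50813749, and mitochondrial genes held 16.9% to 30.1% of them. Enpp1, examined first as a check of the labels, stood between 20.9 and 24.9 CPM (reads of a gene relative to the TMM-scaled library size) in wild-type adenine libraries, with a median of 21.3, and between 21.5 and 24.7 CPM in the libraries labelled knockout, with a median of 22.3. The log2 change was 0.05 ± 0.051 (SE; 95% interval -0.06 to 0.16; edgeR's quasi-likelihood test, adjusted p = 0.465). Enpp1 RNA was thus not lower in the libraries labelled knockout, so the genotype is given below as labelled, and every direction drawn from it rests on that label. A gene total would not reveal the loss of a short exon, and the deleted exons are not named. Chow libraries held 55.8, 55.4, 55.6 and 49.9 CPM. With IgG, Enpp1 stood at 7.94, 8.86, 8.68 and 7.22 CPM, and with the antibody at 9.51, 2.62, 3.26 and 17.4 CPM. The antibody libraries thus lay on both sides of the IgG libraries. Markers of the proximal tubule, the most abundant epithelium of the kidney, were detected in every group. The design gives as many mice as libraries in each group, but the labels tie no library to a mouse, so p-values measure the spread between these samples.

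Within a group, levels of different genes were compared in TPM, which accounts for transcript length. On chow, Timp3, a matrix-bound inhibitor, stood highest at 263 ± 13.4 TPM (SD, n = 4), and Plau, the urokinase that activates plasminogen, followed at 243 ± 32.5 TPM, within the spread of Plau. Adam15, a membrane protease, came next at 42.6 ± 1.44 TPM. In wild-type adenine libraries Plau stood first at 245 ± 32.0 TPM (n = 6), Timp3 next at 120 ± 4.42 and Adam15 close to it at 117 ± 13.1, a gap smaller than the spread of Adam15. Adamts1, a protease of proteoglycans, followed at 68.3 ± 8.64 TPM, and Timp1, an inducible inhibitor, was at 63.3 ± 9.81, again within the spread. In these groups Adamts1 ranked 10 of the 36 members by mean TPM on chow (5.37 ± 0.331) and 4 on adenine. Timp1 ranked 25 on chow (0.583 ± 0.316) and 5 on adenine. TPM values are not to be compared between the groups, and changes between them, such as the fall of Plau, are given below in CPM. Plau and Timp3 thus had the highest means in both groups, with the place of Timp3 on adenine shared with Adam15 within the spread.

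On the adenine diet most of the set rose in wild-type kidneys, led by Mmp7, Timp1, Mmp12 and Adam8, while Timp3, Loxl4, Loxl1, Adam9 and Timp2 showed the deepest falls. Of the 35 members tested, 26 were called higher and 7 lower, and Mmp2 and Plat were not called (edgeR's quasi-likelihood test, adjusted p under 0.05). Of all 16965 genes tested, 44.0% were called higher and 40.9% lower. The median log2 change of the members was 0.89, against 0.07 over all genes. A rise of at least 2-fold was seen in 17 members (23.3% of all genes), and 23 members had every adenine library above every chow library (37.8% of all genes), and 7 below (37.4%).

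**Figure D1:**
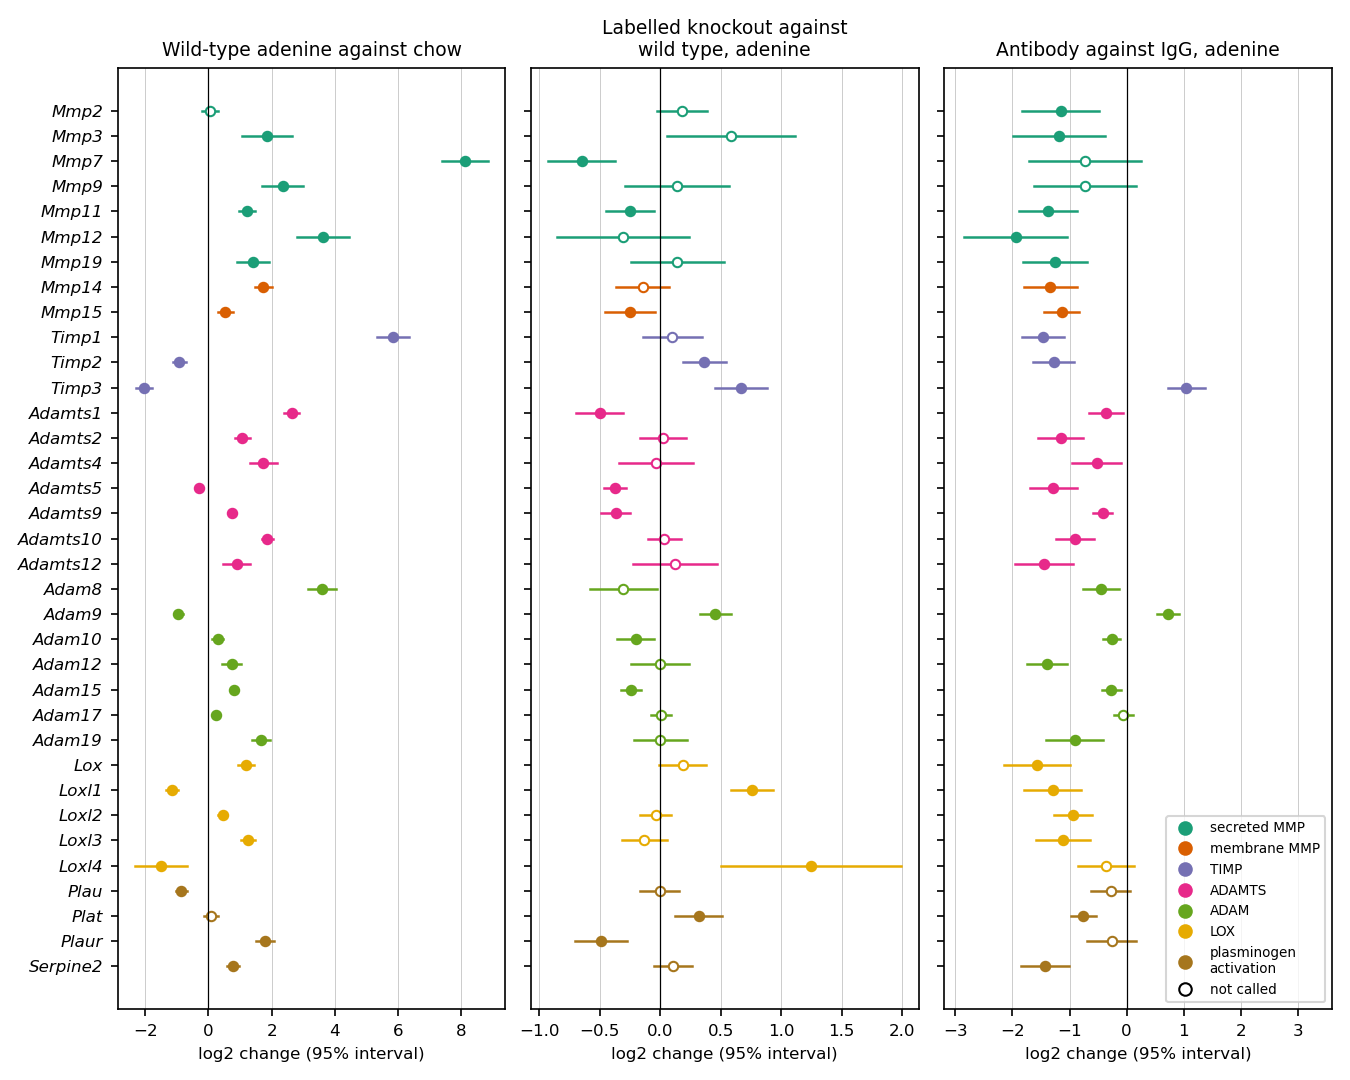
Log2 change of the 35 tested members in 3 comparisons, grouped by role, with 95% intervals; open points were not called at an adjusted p of 0.05. In the left panel Mmp7 stands at 8.11 and Timp3 at -2.04, the middle panel holds smaller changes of both signs, and in the right panel Timp3 and Adam9 are the called members to the right of 0.

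Among the secreted MMPs, 6 of 7 rose. Mmp7, matrilysin, which tubular epithelium makes after injury and which cuts E-cadherin and matrix, was nearly absent on chow at 0.0959, 0.105, 0.0989 and 0 CPM, 6 reads in all. On adenine it ranged from 18.2 to 27.9 CPM with a median of 20.8. The groups were far apart, with a log2 change of 8.11 ± 0.35 (edgeR adjusted p = 8.28e-14). Because so few reads stand behind the chow value, the size of this change depends on the prior count of the fit.

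Mmp12, the macrophage elastase, stood at 3.64, 4.03, 3.51 and 3.80 CPM on chow and between 24.4 and 81.0 CPM on adenine, with a median of 38.2. Every adenine library was higher and the adenine libraries were widely spread (log2 change 3.63 ± 0.39, edgeR adjusted p = 6.66e-08). A transcript annotated as a retained intron held 62.9% to 79.6% of the Mmp12 reads on chow and 10.1% to 25.4% on adenine. The other Mmp12 transcripts had a mean of 1.03 CPM on chow and 39.3 CPM on adenine. This split was looked at after its values were seen. With an offset for transcript length the log2 change was 4.27.

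Mmp9, the gelatinase of neutrophils and macrophages, stood at 0.384, 0.419, 0.396 and 0.760 CPM on chow and between 1.66 and 3.64 CPM on adenine (median 2.43). The groups did not overlap, and the log2 change was 2.34 ± 0.31 (edgeR adjusted p = 9.43e-07). Mmp3, stromelysin 1, which activates other pro-MMPs, had 0.384, 0.576, 0.247 and 0.304 CPM on chow and 0.544 to 2.09 CPM on adenine (median 1.42). The lowest adenine library fell among the chow libraries, and Mmp3 rose with a log2 change of 1.85 ± 0.38 (edgeR adjusted p = 0.000186). Mmp19, another secreted MMP, rose by 1.41 ± 0.24 and Mmp11, stromelysin 3, by 1.23 ± 0.12 on the log2 scale. Mmp2, gelatinase A, was the secreted MMP that was not called, with 5.44 ± 0.311 CPM on chow (n = 4) and 5.63 ± 0.758 on adenine (n = 6), a log2 change of 0.05 whose 95% interval ran from -0.19 to 0.29. In labelled knockouts against chow Mmp2 was also not called (0.23), but it was in 5 of 24 alternatives. With a transcript-length offset that change was 0.58 (edgeR adjusted p = 0.00375), so the result for Mmp2 depends on the processing. In wild type against chow, alternatives for uncalled members with a change under 0.1 were only counted. With other scaling, tests, filters, an offset or a block, 26 to 28 members were called higher there. Whether Mmp2 was among them is not given. Mmp14, the membrane enzyme that activates pro-MMP2, rose from 17.4 ± 0.700 to 58.0 ± 11.5 CPM (log2 change 1.74 ± 0.13), and Mmp15, a related membrane enzyme, rose by 0.54 ± 0.12.

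Promoter windows of 300 bases (250 before and 50 after a RefSeq start) were available for 22 of the 36 members and were searched for the AP-1 motif TGANTCA, which reads the same on both strands. The motif was present in 7.81% of 32851 windows and in a window of 8.97% of 27025 genes. Among the 22 members 5 (22.7%) held it, namely Plaur, Mmp12, Mmp3, Mmp7 and Adam19, and the members' count was too small to read further. For the 4 with the larger rises the stretch before the start site is shown, 5′ to 3′ on the plus strand of GRCm38.p6 from RefSeq with the motif in capitals, to show its place near the start. A match of letters is a description and does not show a factor's binding.
Plaur, chr7:24462383-24462482: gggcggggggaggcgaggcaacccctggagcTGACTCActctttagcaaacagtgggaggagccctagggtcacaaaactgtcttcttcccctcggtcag
Mmp12, chr9:7347274-7347373: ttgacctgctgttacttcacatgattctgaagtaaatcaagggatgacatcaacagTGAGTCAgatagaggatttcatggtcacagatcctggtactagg
Mmp3, chr9:7445722-7445821: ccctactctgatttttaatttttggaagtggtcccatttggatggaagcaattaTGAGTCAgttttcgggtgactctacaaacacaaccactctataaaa
Mmp7, chr9:7691990-7692089: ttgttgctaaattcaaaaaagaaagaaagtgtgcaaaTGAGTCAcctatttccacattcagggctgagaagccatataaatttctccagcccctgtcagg

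The motif began 69 bases before the start in Plaur, 44 in Mmp12, 46 in Mmp3 and 63 in Mmp7. The 3 MMP windows lie on chromosome 9. Mmp12 has another RefSeq start whose window did not hold the motif.

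The TIMP inhibitors moved apart. Timp1, a secreted inhibitor induced by injury and cytokines, stood at 0.384, 1.10, 0.346 and 0.558 CPM on chow and between 28.5 and 36.8 CPM on adenine, with a median of 35.5. The groups were far apart, at a log2 change of 5.85 ± 0.24 (edgeR adjusted p = 5.42e-14). Timp3 stood at 1846, 1915, 1778 and 1854 CPM on chow and between 372 and 505 CPM on adenine (median 466). Every adenine library was below every chow library, and Timp3 fell by 2.04 on the log2 scale (SE 0.11, edgeR adjusted p = 3.15e-12). Timp2, which also takes part in the activation of pro-MMP2, stood at 65.3, 63.2, 56.4 and 63.0 CPM on chow and between 26.0 and 38.1 CPM on adenine (median 33.4). It fell without overlap, by 0.91 (SE 0.093, edgeR adjusted p = 2.68e-08). Timp4 was listed at 0.336, 0.210, 0.396 and 0.152 CPM on chow and between 0.124 and 0.413 CPM on adenine, too low to test.

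Among the ADAMTS proteases 6 of 7 rose. Adamts1 stood at 37.3, 35.5, 42.8 and 40.4 CPM on chow and between 206 and 299 CPM on adenine (median 238), with no overlap (log2 change 2.63 ± 0.12, edgeR adjusted p = 1.38e-13). Adamts10, which is bound to fibrillin microfibrils, stood at 14.9, 14.9, 18.4 and 15.3 CPM on chow and between 50.1 and 64.1 CPM on adenine (median 58.1; log2 change 1.86 ± 0.081, edgeR adjusted p = 1.02e-13). Adamts4, an aggrecanase, stood at 1.10, 1.21, 1.34 and 0.558 CPM on chow and between 2.92 and 4.06 CPM on adenine (median 3.63; log2 change 1.74 ± 0.20, edgeR adjusted p = 1.23e-07). In each of these 3 genes all adenine libraries were above all chow libraries. Adamts2, the procollagen N-proteinase, rose by 1.07, Adamts12 by 0.89 and Adamts9, a protease of versican, by 0.74 on the log2 scale. Adamts5, the other aggrecanase, fell by 0.31 (SE 0.047, edgeR adjusted p = 6.89e-06). With upper-quartile scaling, which raised the median of all genes from 0.07 to 0.30, the Adamts5 change was -0.08 (adjusted p = 0.163).

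Among the ADAM proteases 6 of 7 rose. Adam8, a protease of myeloid cells, stood at 0.959, 0.786, 1.09 and 0.608 CPM on chow and between 8.74 and 12.7 CPM on adenine (median 10.3), with no overlap and a log2 change of 3.61 ± 0.21 (edgeR adjusted p = 6.27e-12). Adam19 rose by 1.66, Adam15 by 0.81 and Adam12 by 0.73 on the log2 scale. The broad sheddases Adam10, which cuts Notch, and Adam17, which releases TNF and EGF receptor ligands, rose by 0.29 and 0.23. Adam9, a widely expressed member of the family, stood at 66.8, 65.4, 54.1 and 59.8 CPM on chow and between 28.1 and 34.2 CPM on adenine (median 32.5). It fell without overlap, by 0.95 (SE 0.066, edgeR adjusted p = 9.85e-11).

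The lysyl oxidases were divided. Lox rose from 8.26 ± 0.543 to 18.8 ± 3.03 CPM (log2 change 1.19 ± 0.12), Loxl3 rose by 1.25 and Loxl2 by 0.45. Loxl1, which crosslinks elastin, stood at 16.8, 18.1, 18.0 and 17.5 CPM on chow and between 6.24 and 9.59 CPM on adenine (median 7.63). All adenine libraries were lower, and the fall was 1.15 on the log2 scale, a change of -1.15 ± 0.092 (edgeR adjusted p = 7.86e-10). Loxl4 stood at 2.54, 2.04, 2.23 and 2.79 CPM on chow and between 0.581 and 1.28 CPM on adenine (median 0.823), again with no overlap (log2 change -1.50 ± 0.39, edgeR adjusted p = 0.00159).

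In plasminogen activation, Plaur, the urokinase receptor, stood at 6.23, 4.56, 4.75 and 5.12 CPM on chow and between 15.5 and 20.8 CPM on adenine (median 17.8). It rose without overlap, by 1.79 ± 0.13 on the log2 scale (edgeR adjusted p = 1.79e-10). Its ligand Plau fell from 826 ± 86.1 to 454 ± 46.5 CPM (log2 change -0.86 ± 0.085, edgeR adjusted p = 1.53e-08). Serpine2, which inhibits thrombin and the plasminogen activators, rose by 0.77. Plat, the tissue-type activator, was not called (0.08, 95% interval -0.14 to 0.30). As for Mmp2, whether an alternative called it in this comparison is not given.

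**Figure D2:**
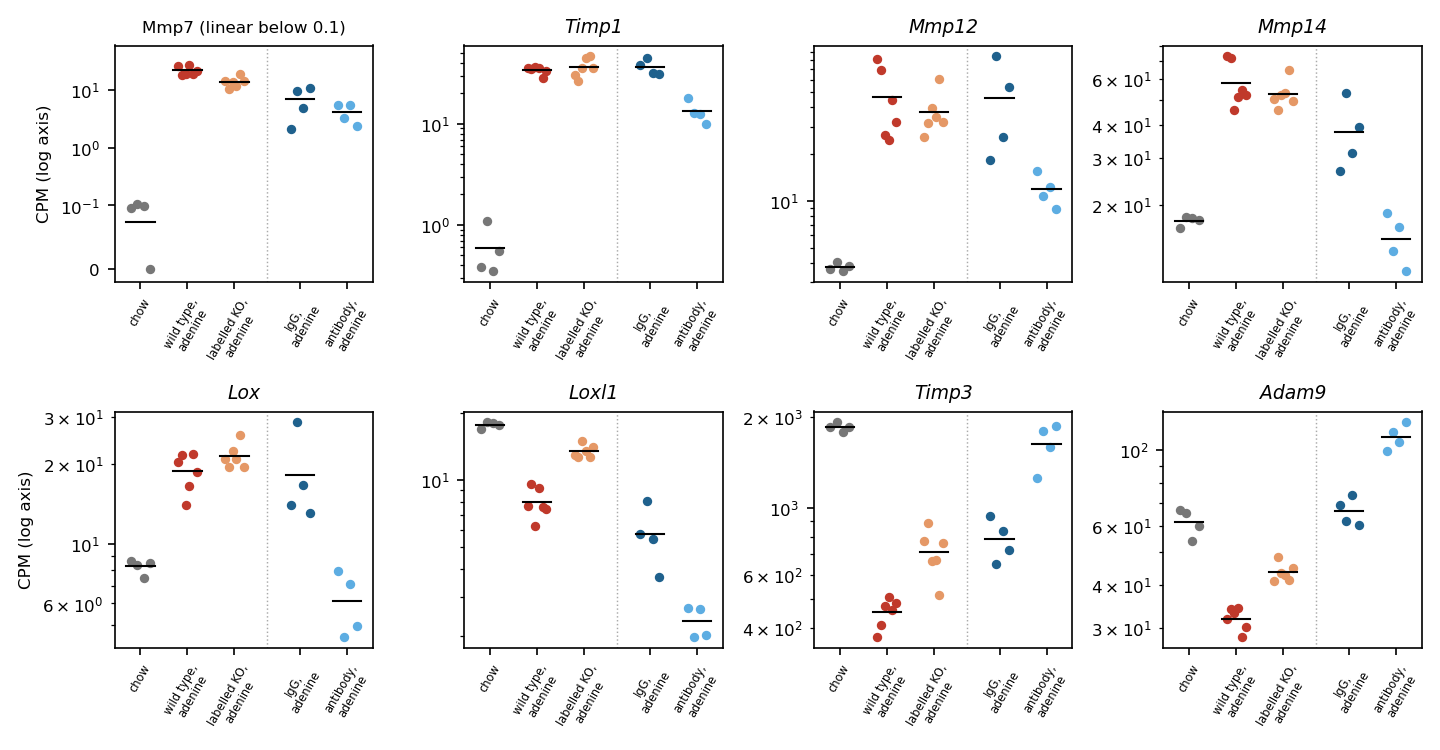
CPM on a log axis (Mmp7 linear below 0.1) of 8 members in every library, with a line at each group mean and a dotted line between the 2 experiments. Left of the dotted line, Mmp7, Timp1, Mmp12, Mmp14 and Lox are higher in the wild-type adenine group than in the chow group and Loxl1, Timp3 and Adam9 lower, and right of it Timp3 and Adam9 are higher with the antibody than with IgG.

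Related genes outside the set moved in both directions. Of 25 other MMP, ADAM, ADAMTS and meprin genes tested, 13 rose and 6 fell, with meprins of the brush border, Mep1b and Mep1a, at -5.17 and -3.26 and Adamts16 at 4.22 on the log2 scale. Of 15 plasmin and other protease inhibitors, 9 rose and 5 fell, led by Serpina3n (4.74) and Slpi (4.69). Of 20 matrix substrates 11 rose and 1 fell, with Col1a1 at 3.54, Col3a1 at 2.06 and Tnc at 1.76. Of 23 genes of collagen modification 6 rose and 15 fell, with Pcolce2 at -2.28, Bmp1, the procollagen C-proteinase, at 1.92 and P4ha3 at 1.92. Of 19 partners and substrates of the sheddases 10 rose and 5 fell, with Tnf at 4.70, Egf at -3.54 and Rhbdf2, which matures ADAM17, at 2.52.

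Markers of cell types moved in both directions. In wild-type adenine libraries against chow, 13 of 15 macrophage markers rose and 1 fell, and their summed level was 262 to 279 CPM on chow and 505 to 728 CPM on adenine. All 6 neutrophil markers tested of the 11 rose, from a sum of 8.58 to 13.0 CPM to one of 43.8 to 64.7 CPM, with Elane, Camp and Ngp at 0 on chow and Elane at 0 on adenine. Of 12 fibroblast markers 4 rose and 7 fell, with sums of 309 to 324 CPM and 390.0 to 578 CPM. Col1a1 and Col3a1, counted above among the matrix substrates, are also part of this list, so its sum rose although most of its genes fell. All 14 proximal tubule markers fell, from 33553 to 36197 CPM to 3202 to 5816 CPM, as did 10 of 11 endothelial, 10 of 11 distal nephron, 5 of 7 podocyte and all 5 red cell markers. Of 12 injured tubule markers 11 rose, and of 12 lymphocyte markers 9. Their part in the changes of the members was not tested. In bulk tissue, fewer cells of a type and less RNA per cell cannot be told apart.

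**Figure D3:**
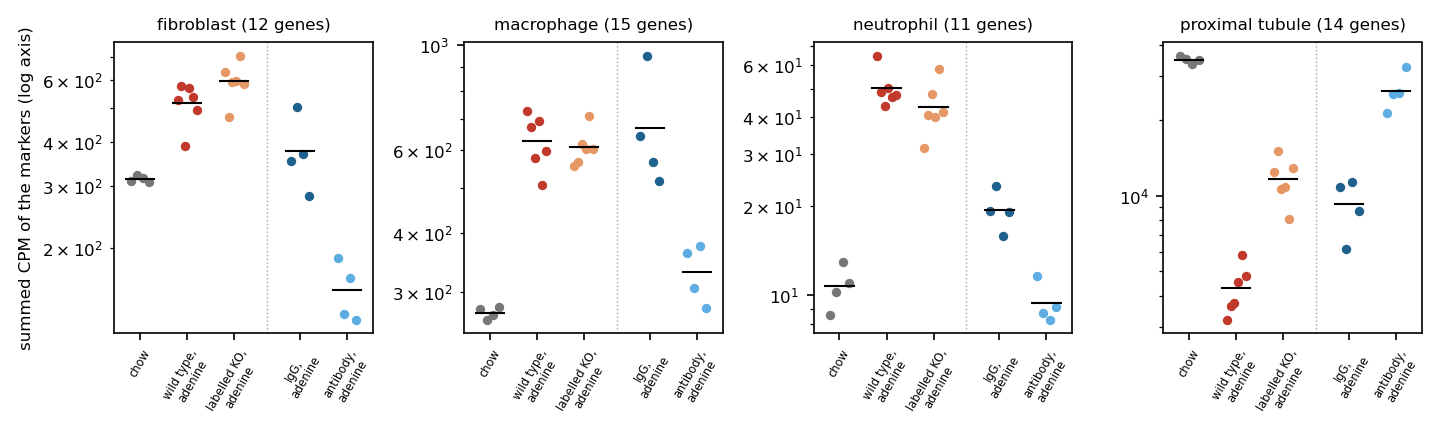
Summed CPM of the marker genes of 4 cell types in every library, on a log axis, with a line at each group mean. Proximal tubule markers were lowest in wild-type adenine libraries and fibroblast and macrophage markers lay lower with the antibody than with IgG.

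In the libraries labelled knockout, changes from wild type on adenine were smaller and ran in both directions. Loxl4, Loxl1, Timp3 and Adam9 rose most, and Mmp7, Adamts1, Plaur and Adamts5 fell most. Of the 35 members 6 were called higher and 9 lower, against 25.1% and 21.3% of all genes called higher and lower (edgeR's quasi-likelihood test). Their median log2 change was 0.00, and that of all genes -0.02. A rise of at least 2-fold was seen in 1 member, Loxl4 (3.24% of all genes). Separation of all libraries was seen in 3 members above (14.4% of all genes) and 4 below (10.2%).

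Loxl1 ranged from 12.6 to 14.95 CPM in the libraries labelled knockout (median 13.2), above all wild-type adenine libraries (6.24 to 9.59 CPM), a log2 change of 0.76 ± 0.084 (edgeR adjusted p = 1.11e-06). Timp3 ranged from 515 to 891 CPM (median 716), above the 372 to 505 CPM of wild type (0.66 ± 0.10, edgeR adjusted p = 4.14e-05). Adam9 ranged from 41.3 to 48.4 CPM (median 43.2), above the 28.1 to 34.2 CPM of wild type (0.46 ± 0.060, edgeR adjusted p = 8.27e-06). These 3 genes had no overlap, and all 3 had fallen on adenine against chow. Both comparisons share the wild-type adenine libraries, with opposite sign, so their directions are not independent. Adamts5 fell in both. Loxl4 ranged from 0.885 to 4.36 CPM (median 1.43) and overlapped the 0.581 to 1.28 CPM of wild type, with 2 libraries at 2.99 and 4.36 CPM far above the rest (1.25 ± 0.35, edgeR adjusted p = 0.00748). Timp2 ranged from 35.8 to 46.9 CPM (median 43.9), overlapped the 26.0 to 38.1 CPM of wild type and rose by 0.36, and Plat rose by 0.32. Timp1 ranged from 26.8 to 46.7 CPM (median 35.8) around the wild-type values and was not called, with a log2 change of 0.10 whose 95% interval ran from -0.15 to 0.35. Timp4 lay between 0.0392 and 0.331 CPM in these libraries.

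Mmp7 ranged from 10.7 to 19.4 CPM in the libraries labelled knockout (median 14.1) and overlapped the 18.2 to 27.9 CPM of wild type only at its highest library, with a fall of 0.65 on the log2 scale (SE 0.13, edgeR adjusted p = 0.000618). Adamts1 ranged from 132 to 198 CPM (median 174), below the 206 to 299 CPM of wild type (-0.50 ± 0.092, edgeR adjusted p = 0.000257). Plaur ranged from 10.8 to 17.0 CPM (median 11.9) and overlapped the 15.5 to 20.8 CPM of wild type (-0.49 ± 0.10, edgeR adjusted p = 0.000707). Adamts5 ranged from 31.7 to 35.9 CPM (median 34.2), below the 41.6 to 47.3 CPM of wild type (-0.38 ± 0.043, edgeR adjusted p = 1.44e-06). Adamts9 fell by 0.37, Adam15 by 0.24, Mmp11 by 0.25, Mmp15 by 0.25 and Adam10 by 0.20. Calls of the last 3 genes changed with single libraries or with the processing. Adam10 was not called with a replicate block or without labelled knockout library 1 or 6 or wild-type library 1, 2 or 3 (log2 change -0.27 to -0.17 over all alternatives, highest edgeR adjusted p 0.0666). Mmp11 was not called with no low-count filter, a transcript-length offset or a replicate block, or without labelled knockout library 1, 2, 4 or 6 or wild-type library 1, 2 or 5 (-0.31 to -0.13, highest adjusted p 0.533). Mmp15 was not called with RLE scaling, no low-count filter or a replicate block, or without labelled knockout library 2, 3, 4 or 6, wild-type library 1, 2, 3 or 6 or chow library 1, 2 or 4 (-0.31 to -0.21, highest adjusted p 0.110). Adam8 (-0.31) and Mmp3 were not called. Adam8 was called with upper-quartile scaling, limma voom or a transcript-length offset, or without labelled knockout library 5 or wild-type library 4. Mmp3 was called higher with a replicate block (0.61, edgeR adjusted p = 0.0447), or without labelled knockout library 2 or wild-type library 5.

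Related genes and markers moved as follows. Of 20 matrix substrates 9 rose and none fell, with Col6a3 at 0.90, Col6a2 at 0.83 and Nid1 at 0.55, and of 23 genes of collagen modification 11 rose and 2 fell. Of the 25 other proteases 5 rose and 6 fell, with Mep1b at 1.66 and Mep1a at 1.09, and of 15 inhibitors 3 rose and 5 fell. Of the 19 partners and substrates of the sheddases 4 rose and 5 fell, with Egf at 1.76. All 14 proximal tubule markers rose, from 3202 to 5816 CPM to 8120.1 to 15150.3 CPM. Of 12 fibroblast markers 4 rose and none fell, at 390.0 to 578 CPM in wild type and 473 to 704 CPM in the libraries labelled knockout, and 1 of 15 macrophage markers rose and 2 fell. Of 11 endothelial markers 9 rose, all 7 podocyte and all 5 red cell markers rose, and 8 of 12 injured tubule markers fell. Their part in the members' changes was not tested.

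Against chow, the libraries labelled knockout had 26 members called higher and 6 lower, where 40.2% and 39.9% of all genes were called higher and lower, 80.1% in all (edgeR). All libraries lay above those on chow in 25 members (33.7% of all genes). This comparison shares its chow libraries with that of wild type and its knockout libraries with the comparison above, so the values are given side by side. Against chow, Timp3 was -2.04 in wild type and -1.37 in labelled knockouts, Loxl1 -1.15 and -0.39, Adam9 -0.95 and -0.49, Mmp7 8.11 and 7.46, and Adamts1 2.63 and 2.13. Timp1 was 5.85 and 5.95, Mmp12 3.63 and 3.32, and Mmp14 1.74 and 1.59. Loxl4 was not called against chow in the libraries labelled knockout (-0.25, 95% interval -1.01 to 0.51).

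With the antibody most of the set was lower than with IgG. Mmp12, Lox, Timp1 and Adamts12 fell most, and Timp3 and Adam9 were the 2 members that rose. Of 35 members 27 were called lower and 2 higher, where 28.0% of 16410 genes were called lower and 27.2% higher, 55.3% in all (edgeR's quasi-likelihood test). The median log2 change of the members was -0.94, against -0.04 over all genes. A fall of at least 2-fold was seen in 17 members (7.26% of all genes), a rise of that size in 1, Timp3 (4.09%), and 24 members had every antibody library below every IgG library (25.2% of all genes). Mmp7, Mmp9, Loxl4, Plau, Plaur and Adam17 were not called. The 2-fold counts depend in part on IgG library 2. Without it, Timp3 (0.98), Mmp2 (-0.76), Mmp3 (-0.81), Loxl3 (-0.89) and Adamts2 (-0.95) kept their direction but changed by less than 2-fold. The other members with a 2-fold fall kept a fall of that size.

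Mmp12 stood at 18.3, 84.9, 25.7 and 54.0 CPM with IgG and at 15.6, 10.8, 12.2 and 8.91 CPM with the antibody. All antibody libraries were lower, although the lowest IgG library was close to the highest of them (log2 change -1.94 ± 0.41, edgeR adjusted p = 0.00239). Without IgG library 2, the highest, the change was -1.44 (adjusted p = 0.00382). Lox, the first lysyl oxidase, stood at 14.0, 28.6, 16.6 and 13.1 CPM with IgG and at 7.96, 4.48, 7.08 and 4.93 CPM with the antibody. The groups did not overlap, and IgG library 2 was again the highest (-1.57 ± 0.26, edgeR adjusted p = 0.000604; -1.24 without that library). Timp1 stood at 38.6, 44.8, 32.2 and 31.3 CPM with IgG and at 17.8, 12.7, 12.6 and 10.02 CPM with the antibody, also without overlap (-1.47 ± 0.17, edgeR adjusted p = 8.38e-05). Adamts12 stood at 2.31, 3.51, 2.53 and 2.63 CPM with IgG and at 1.04, 0.719, 0.844 and 1.42 CPM with the antibody (-1.45 ± 0.23, edgeR adjusted p = 0.00045).

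Timp3 stood at 939, 651, 836 and 722 CPM with IgG and at 1257, 1787, 1584 and 1862 CPM with the antibody. Every antibody library was higher, with a log2 change of 1.04 ± 0.15 (edgeR adjusted p = 0.000229). Adam9 stood at 69.1, 61.9, 73.9 and 60.1 CPM with IgG and at 99.3, 113, 106 and 121 CPM with the antibody, again without overlap (0.73 ± 0.086, edgeR adjusted p = 9.54e-05). Timp2 stood at 19.0, 34.2, 24.1 and 23.0 CPM with IgG and at 11.3, 8.68, 10.9 and 10.4 CPM with the antibody, and fell by 1.28 (SE 0.16, edgeR adjusted p = 0.000138). Timp4 stood at 0.0642, 0.0702, 0.162 and 0 CPM with IgG and at 0.0988, 0.0464, 0.0234 and 0.207 CPM with the antibody, and was not tested.

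By role, 5 of 7 secreted MMPs fell, among them Mmp11 (-1.38), Mmp19 (-1.26), Mmp3 (-1.19) and Mmp2 (-1.16). Both membrane MMPs fell, Mmp14 by 1.34 and Mmp15 by 1.14 on the log2 scale. All 7 ADAMTS genes fell, among them Adamts5 (-1.28) and Adamts2 (-1.15), and of the ADAM genes 5 of 7 fell, led by Adam12 (-1.39) and Adam19 (-0.91). Of the 5 lysyl oxidases 4 fell, Loxl1 by 1.30, Loxl3 by 1.11 and Loxl2 by 0.94. Serpine2 fell by 1.44 and Plat by 0.76. Mmp7 was not called, with 2.10, 9.79, 4.84 and 11.02 CPM with IgG and 5.61, 3.25, 5.46 and 2.40 CPM with the antibody. Its groups overlapped (-0.73, 95% interval -1.71 to 0.25), and without IgG library 1 the change was -1.03 (adjusted p = 0.0254). Adam8 (-0.45), Adamts4 (-0.52) and Adamts1 (-0.36) were called, but not with a replicate block, nor without antibody library 2 or 4 or IgG library 4. Adamts4 and Adamts1 were also not called without antibody library 3 or IgG library 2, nor Adamts1 without IgG library 3 or with the transcript-length offset. The highest edgeR adjusted p was 0.0634 for Adam8, 0.127 for Adamts4 and 0.123 for Adamts1. Plau was called with upper-quartile scaling (-0.43, edgeR adjusted p = 0.0347) and without antibody library 1 (-0.40, adjusted p = 0.0444). Mmp3 was not called without antibody library 2 or without IgG library 2 (-0.81 in the latter case, edgeR adjusted p = 0.0627), and Mmp2 was not called with the transcript-length offset (-0.99, adjusted p = 0.160).

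**Figure D4:**
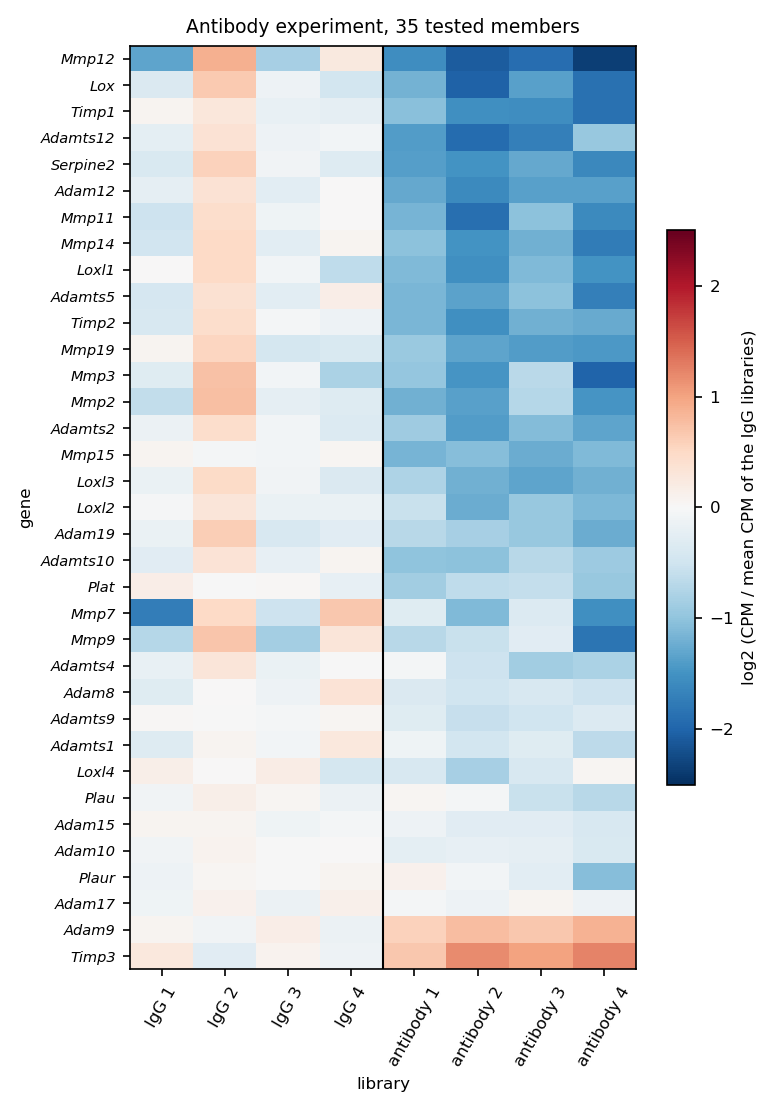
Log2 of CPM over the mean of the IgG libraries for the 35 tested members in the 4 IgG and 4 antibody libraries, sorted by the log2 change. IgG 2 is above the IgG mean in many rows, most antibody columns are blue, and Adam9 and Timp3 at the bottom are red.

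Related genes and markers moved as well. Of 20 matrix substrates 18 fell and none rose, with Tnc at -1.77, Col1a1 at -1.68 and Col1a2 at -1.66. Of 26 other proteases 11 fell and 3 rose, with Adam28 at -1.39 and the meprins Mep1b at 1.98 and Mep1a at 1.74. Of 15 inhibitors 8 fell and 2 rose, with Serpinf2, which inhibits plasmin, at 1.60 and Serpinf1 at -0.91. Of 23 genes of collagen modification 7 fell and 5 rose, with Fkbp10 at -1.20, Bmp1 at -1.08 and P3h3 at -1.08. Of 20 partners and substrates of the sheddases 8 fell and 3 rose, with Egf at 2.89, Il6ra at -0.86 and Tnfrsf1b at -0.72.

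In the same comparison 11 of 12 fibroblast markers fell and none rose, with a sum of 280.5 to 503 CPM with IgG and 125 to 188 CPM with the antibody. Of 15 macrophage markers 14 fell and 1 rose, with sums of 517 to 951 CPM and 278 to 377 CPM, and all 4 neutrophil markers tested fell (15.9 to 23.4 CPM and 8.23 to 11.6 CPM, with Elane and Camp at 0 in both groups). IgG library 2 had the highest macrophage and fibroblast sums, 951 and 503 CPM, with the next IgG libraries at 644 and 370 CPM. All 14 proximal tubule markers rose, and their summed level lay above that of every IgG library, at 21453 to 32777 CPM against a highest IgG value of 11405. Of 11 endothelial markers 4 fell, and of 12 injured tubule markers 9. Their part in the changes of the members was not tested.

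The difference between the labelled knockout effect and the antibody effect was tested in a fit of the 20 adenine libraries. The 2 effects come from separate experiments with other controls and depths, and differences between the experiments cannot be told apart from differences between the interventions. The knockout effect was higher in 22 members and lower in 1, Adam9, where 16.3% and 21.6% of 17119 genes were called higher and lower, 37.9% in all (edgeR). In the same test 18 of 20 matrix substrates, 12 of 15 macrophage, 9 of 12 fibroblast, 8 of 11 endothelial and all 5 red cell markers were higher, and 5 of 14 proximal tubule markers lower, and their part was not tested. The largest differences among the members were those of Loxl1 (1.98 ± 0.22, edgeR adjusted p = 3.43e-06), Mmp3 (1.70 ± 0.47, adjusted p = 0.00718) and Lox (1.68 ± 0.27, adjusted p = 7.57e-05). Loxl1 had risen in the libraries labelled knockout and fallen with the antibody, as had Timp2 and Plat. For Timp3, which rose in both, the difference was -0.46 (95% interval -0.86 to -0.05, edgeR adjusted p = 0.0681). For Mmp7 it was 0.02 with a 95% interval of -0.88 to 0.92, and for Adamts1 -0.21 (-0.57 to 0.16). The difference of Mmp12, 1.56 ± 0.54 (edgeR adjusted p = 0.0267), was not called by limma voom, with a replicate block (1.45, adjusted p = 0.0787) or without IgG library 2 (1.08, adjusted p = 0.103), antibody library 2 or antibody library 4, and that of Loxl4, 1.53, was not called without antibody library 2 (highest adjusted p 0.0511).

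**Figure D5:**
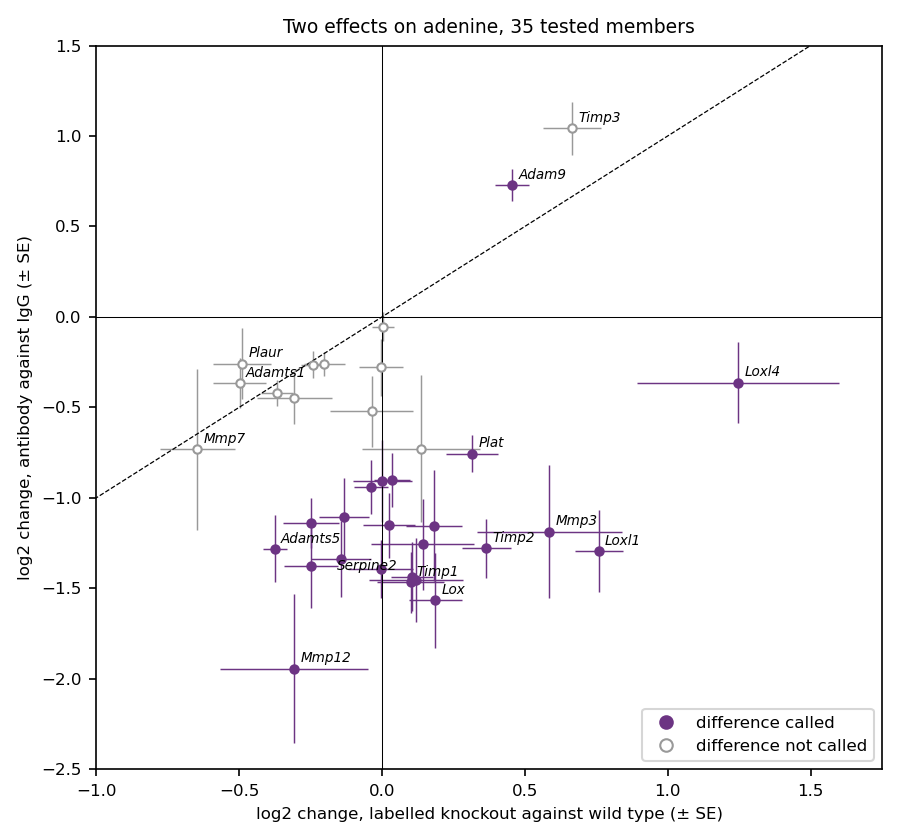
Log2 change of the 35 tested members in the labelled knockout against wild type (horizontal) and in the antibody against IgG (vertical), each ± SE, with equality as a dashed line; filled points had a called difference. Most filled points lie below the line, Loxl1 far below it, and Timp3 and Adam9 are in the upper right.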

How the data were processed

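Kidney RNA of 24 libraries was analysed from stranded libraries of total RNA. Per the submitters' processing notes, the tools were FastQC, Salmon, DESeq and DESeq2, without versions, and the build was GRCm39. The authors deposited estimated counts per transcript (NumReads, which need not be whole), TPM and effective transcript lengths, per the file headers. TPM, deposited by the authors on the scale of each library, served only to order genes within a group. Transcripts were assigned to genes by identifier without version in GENCODE M21 (GRCm38), since no GRCm39 annotation was used here, and 0.439% to 0.527% of the reads of a library did not match. Estimated counts were summed per gene and rounded.

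Genes were tested with edgeR 4.0.16 in R 4.3.3 (filterByExpr, TMM, quasi-likelihood F test, 2-sided, Benjamini-Hochberg over all genes, threshold 0.05). The knockout experiment was fitted on its 16 libraries, the 8 of the antibody experiment had their own, and the 20 adenine libraries gave the difference of effects. Standard errors come from the F statistic and 95% intervals from its total degrees of freedom. Alternatives were RLE and upper-quartile scaling, DESeq2 1.42.0, limma 3.58.1 voom, 2 other filters, a transcript-length offset, a replicate block and each library left out. The tests were tried on simulated counts first. No pair of replicates agreed within sampling noise.

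Members and lists were chosen with earlier results of these data known. Values in every library (in groups of 6, the lowest, median and highest, or the range) are given for Enpp1, the 4 Timp genes, the 10 called members with the largest rise and the 5 with the largest fall on adenine against chow, and the 4 largest of each direction in the other comparisons, with a mean of at least 1 CPM in either group. Of each list outside the set up to 3 genes with the largest change are named. Promoter sequences are RefSeq's, on GRCm38.p6.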

Additional observations from a re-analysis of the deposited data

Results flagged for a closer look

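In 6 of 175 gene and group combinations with 4 to 6 libraries, a single library lay far from the others, measured by its gap to the nearest library over the range of the group. Chance gives about 1 in 20 such groups. Mmp7 was at 0 CPM in chow library 4, with the other 3 from 0.0959 CPM up. Mmp9 was at 0.76 CPM in the same library, with the nearest at 0.419 CPM. Adamts10 was highest in chow library 3 at 18.4 CPM and Adamts12 in chow library 2 at 2.04 CPM. Among the libraries labelled knockout, Mmp14 was highest in library 5 at 64.9 CPM and Loxl3 lowest in library 2 at 7.74 CPM.

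The labelled knockout effect and the antibody effect differed in 23 members by the test of the difference itself (log2, knockout minus antibody; edgeR, adjusted p under 0.05). Among the lysyl oxidases the difference was 1.98 for Loxl1, 1.68 for Lox, 1.53 for Loxl4, 0.90 for Loxl3 and 0.827 for Loxl2. For the MMP genes it was 1.70 in Mmp3, 1.56 in Mmp12, 1.32 in Mmp19, 1.26 in Mmp2, 1.12 in Mmp14, 1.06 in Mmp11 and 0.813 in Mmp15. Timp2 differed by 1.57 and Timp1 by 1.49. Among the ADAMTS genes the values were 1.50 for Adamts12, 1.10 for Adamts2, 0.863 for Adamts10 and 0.833 for Adamts5. Adam12 differed by 1.31, Adam19 by 0.833 and Adam9 by -0.352, the only negative value called. In plasminogen activation Serpine2 differed by 1.46 and Plat by 0.994. The experiment and the intervention cannot be told apart in these differences.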

How the results depend on the processing

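Counts of called members changed little over the alternatives on adenine against chow, and more in the labelled knockout against wild type. With other scaling, tests, filters, an offset or a block, 26 to 28 members were called higher and 6 to 7 lower on adenine against chow. The same alternatives gave 6 to 7 higher and 6 to 10 lower in the labelled knockout against wild type (6 and 9 in the main fit). With the antibody they gave 2 higher and 24 to 29 lower. Over libraries left out in turn, members called higher and lower were 26 and 7 on adenine against chow in every case, 6 to 8 and 6 to 10 in the labelled knockout against wild type, 25 to 27 and 6 in the labelled knockout against chow, 2 and 23 to 28 with the antibody, and 20 to 23 and 1 to 2 for the difference of effects. The count of members with a lower knockout effect, 1, was 0 with upper-quartile scaling and 2 with DESeq2. With the replicate number as a block, 7 members were called higher and 6 lower in the labelled knockout against wild type, and 24 lower with the antibody. Deviations of same-numbered libraries from their group means (log2 CPM) correlated from -0.24 to 0.13. Libraries with different numbers were not compared in this way, so these values do not decide whether the numbers pair the samples. Mmp2 in the labelled knockout against wild type changed sign with the transcript-length offset, from 0.18 to -0.12, and Mmp9 from 0.14 to -0.029 without labelled knockout library 5 (up to 0.27 without wild-type library 1); neither was called in these fits, and the cause was not tested. Without labelled knockout library 2, Mmp2 was called (0.24, adjusted p = 0.0455). Upper-quartile scaling moved the median log2 change of all genes with the antibody from -0.04 to -0.19, and the share of higher among called genes from 49.3% to 31.1%; that share moved from 54.1% to 40.8% in the labelled knockout against wild type and from 43.0% to 69.1% for the difference of effects. For Adam9, which rose in both effects, the negative difference was not called with upper-quartile scaling (edgeR adjusted p = 0.0936). Low counts limit Timp4, with 15 to 38 reads over a group, and Mmp7 on chow, with 6.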
